A study of Mus musculus with 125 samples.

Results

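The subject is 8 mouse 2-cell embryos of the cross C57BL/6 x JF1/Ms that had been scored with 1 pronucleus (1PN) and that the submitters called parthenogenetic in silico, here uniparental 1PN embryos. They were chosen by that label and compared with all 31 embryos labelled as C57BL/6 parthenotes. These 39 are part of 125 libraries, each made from the RNA of 1 embryo. C57BL/6 is the common inbred laboratory strain, and JF1/Ms is an inbred strain of Japanese fancy mice whose sequence differs enough to tell the parental alleles apart. Per the labels' protocol, zygotes were picked at 10 h after fertilization. Their second polar body was taken off, and the embryos were collected at 34 h; no allele, drug or transgene is named. The labels of the parthenotes carry the same protocol text, and how they were activated, their ploidy, and which strain of the cross was the mother are not named in those labels. The groups differ in strain label and in how the embryos arose, and whether their libraries were made together is not stated; these cannot be told apart. For orientation, 43 embryos of the same cross with 2 pronuclei (2PN) and 4 uniparental 1PN embryos of the reciprocal cross JF1/Ms x C57BL/6 are used. Nothing in the labels says which embryos shared a mother or a day, so p-values measure the spread between these embryos.

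A parthenote is an egg that starts development with no contribution from a sperm. It has maternal chromosomes only, so imprinted genes that are read from the paternal copy stay silent. The 2-cell stage of the mouse is when RNA stored in the oocyte is broken down and the embryo's own genome is switched on, with ribosome biogenesis genes among those made early. The comparison asks whether embryos of the cross that were called parthenogenetic in silico and embryos labelled as parthenotes hold the same RNA.

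Each uniparental 1PN library held from 2473230 to 4234910 gene counts (median 3445800) and each parthenote library from 1846360 to 4302020 (median 3185910). Of 5 library measures, with p-values from 2-sided exact permutation tests adjusted over the 5, total counts (adjusted p = 0.290), genes with a count (0.573) and the share of mitochondrial genes (0.573) were not past the threshold of 0.05. The 50 most counted genes took 18.5% ± 5.79 (SD, n = 8) of the counts in uniparental 1PN embryos and 15.7% ± 2.42 (SD, n = 31) in parthenotes, with an adjusted p of 0.0947 (exact permutation test), or 0.0222 without embryo 11. The fifth measure, the share of genes without a symbol, did differ and is described at the end. Markers of the embryo itself (Zp3, Gdf9, Nlrp5, Ooep, Padi6, Zscan4c, Zscan4d, Obox3, Zfp352 and Tcstv1) summed to 1490 to 2981 CPM (counts scaled to library size) in uniparental 1PN embryos and 1495 to 5038 in parthenotes. Markers of other cells summed to less. The 12 of cumulus or granulosa cells summed to 13.6 to 102 CPM against 33.9 to 202. Of these, 1 (Fshr) was at 0 in all 8 uniparental 1PN embryos, and Tnfaip6 and Amhr2 were the highest. The 9 sperm markers found summed to 0.884 to 39 CPM against 0.298 to 73.7. Of these, Tnp1, Plcz1 and Acr were at 0 in the 8 embryos, and Izumo1 and Odf1 were the highest. The 6 found of blood and other cells summed to 18.6 to 106 CPM against 22.6 to 157. None of the 6 was at 0 in all 8 embryos, and Pecam1 and Hba-a1 were the highest. The part of these other cells in the results was not tested.

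Y-linked genes, and most genes that were nearly absent in parthenotes, were low in the 8 embryos. Y-linked genes were near 0: Ddx3y and Eif2s3y had no count in any of the 8, and Uty reached at most 1.19 CPM, while its median in 2PN embryos was 37.1. A total of 38 genes averaged 10 CPM or more in 2PN embryos and under 0.5 in parthenotes, and 35 of them were also under 0.5 in uniparental 1PN embryos. Among these were the genes of neuropeptide Y (Npy, at most 0.267 CPM in the 8 embryos, 2PN median 39.6), Flrt2 (at most 0.267, 2PN median 17.1) and Txndc8 (0 in all 8, 2PN median 14.2). Over the 38 genes the median of the group means was 0.0480 CPM in the 8 embryos, 0.0555 in parthenotes and 5.41 in the reciprocal uniparental 1PN embryos. The 4 reciprocal embryos are of the cross JF1/Ms x C57BL/6 and differed widely from parthenotes. Their mean log2(CPM + 1) of 2-cell-stage genes was 2.33 to 6.23, against 5.16 to 6.89 in parthenotes. For ribosome biogenesis genes it was 2.63 to 5.02 against 4.95 to 6.99. The part of strain and of these levels in comparisons with them was not tested. In the reciprocal embryos Npy averaged 246 CPM, Txndc8 8.91 and Flrt2 0.457, so low levels of these genes were not shared by all embryos called uniparental. Conversely 557 genes had at least 10 CPM in parthenotes and under 0.5 in the reciprocal uniparental 1PN embryos. None of these was under 0.5 in the 8 embryos and 500 were at 5 CPM or more. Of the 157 genes with at least 10 CPM in the reciprocal embryos and under 0.5 in parthenotes, 124 were under 0.5 in the 8 embryos. The genes that are nearly absent in parthenotes were thus mostly nearly absent in the uniparental 1PN embryos as well. The 8 embryos were chosen by a call of parthenogenesis made in silico. If that call used the same reads, this likeness follows in part from the choice. It is a description and not a test.

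**Figure D1:**
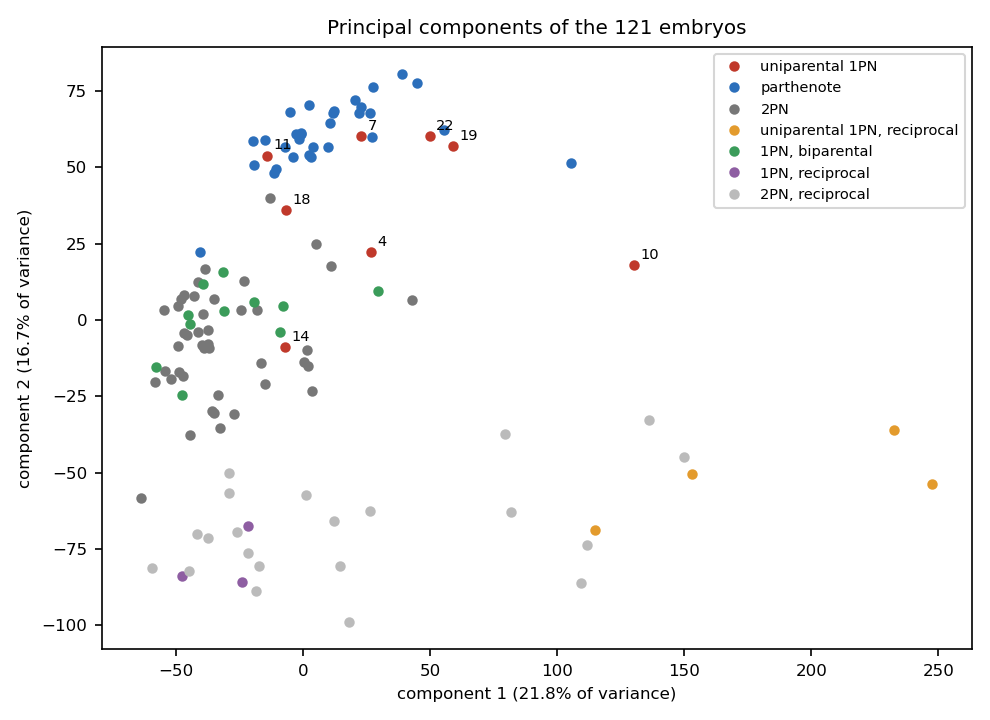
The first 2 principal components of log2(CPM + 1) over 9485 genes, with 1 point per embryo, the 7 groups in colour and the uniparental 1PN embryos numbered as in their titles. Embryos 11, 19, 7 and 22 lie among the parthenotes, at 53.8 to 60.3 on component 2. Embryo 18 (35.95) lies lower on it than every parthenote but number 20 (22.1), embryos 4 (22.1), 10 (18.1) and 14 (-8.83) lie at or below that one, and embryo 10 lies far to the right, at 130.5 on component 1.

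The 8 embryos were not alike. Spearman's rho between an embryo and the mean of a group, over the 9485 genes that averaged 10 CPM or more across the 39 embryos, is used here as a description. Embryo 11 had a rho of 0.892 with the parthenote mean and 0.839 with the 2PN mean. Embryo 14 was nearer the 2PN mean, with 0.811 and 0.893, and embryo 4 was about as near to both, with 0.780 and 0.782. Embryo 10 had 0.587 with parthenotes, 0.532 with 2PN embryos and 0.751 with the 4 reciprocal uniparental 1PN embryos, so that its RNA stood apart from that of both larger groups. Embryos 18, 19, 7 and 22 had a rho of 0.789 to 0.874 with the parthenote mean and 0.665 to 0.862 with the 2PN mean, each nearer to parthenotes. The spread within the group, taken as 1 minus the rho of log2(CPM + 1) between an embryo and the mean of the others of its group over 24380 genes, was 0.138 ± 0.0320 (SD, n = 8) in uniparental 1PN embryos and 0.104 ± 0.0246 (SD, n = 31) in parthenotes. This difference of 0.0339 was past the threshold (2-sided exact permutation test, p = 0.00448). The mean of the others is over 7 embryos in one group and 30 in the other, and the part of that in the difference was not tested. Leaving out embryo 10 moved the counts of calls more than leaving out any other of the 8, and adjusted p-values without it are given below where they change a call.

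Between the 8 uniparental 1PN embryos and the 31 parthenotes, few genes differed. Oocyte-derived RNAs such as Zfp57, Zbed3, Ooep and Npm2 were higher in the uniparental 1PN embryos, by 1.06 to 1.78 on the log2 scale. Pcdh10 (log2 difference -3.52), Hexim1 (-2.15) and Hmgn5 (-1.76) were lower. Of 24380 genes tested, 325 were higher (1.33%) and 132 lower (0.541%), 1.87% in either direction, at an adjusted p under 0.05 from edgeR's quasi-likelihood test; 14.7% had an unadjusted p under 0.05. Of these calls, 268 were of genes with a mean under 10 CPM over the 39 embryos. Over all calls, 76 of the genes called lower had no count in any of the 8 embryos, and 63 of those called higher had a count in at most 2 of the 8. Among the 9485 genes at 10 CPM or more, 155 were higher (1.63%) and 34 lower (0.358%), 1.99% in all. For 3931 of the 9485 (41.4%) the approximate 95% interval of the fold change lay within 2-fold either way, so that for the rest a 2-fold difference was not excluded at this number of embryos. Without embryo 10 the counts were 124 higher and 23 lower. Without embryo 4 the lower count was 48 and without embryo 7 it was 70. The split by direction also moved with the tool: limma voom called 286 higher and 406 lower.

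**Figure D2:**
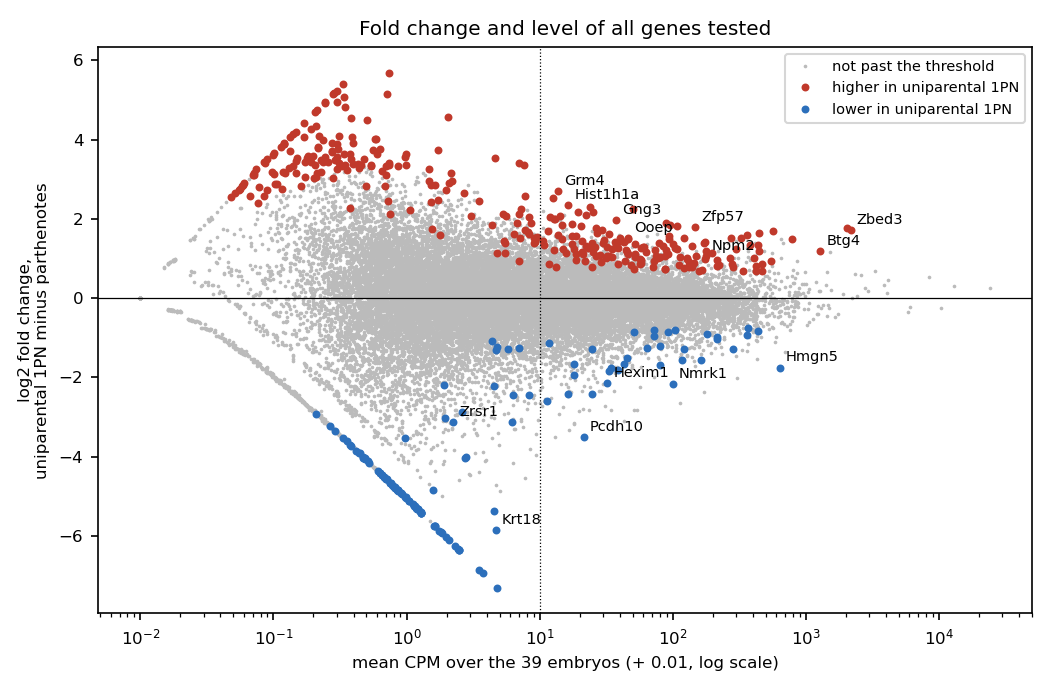
Log2 fold change of uniparental 1PN embryos minus parthenotes (vertical axis) against the mean CPM over the 39 embryos (log scale) for the 24380 genes tested, with genes past the threshold in red (higher) and blue (lower) and a dotted line at 10 CPM. To the right of the line 155 genes are red and 34 are blue; the blue points on the lower left edge are genes with no or nearly no count in the 8 embryos.

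Part of a list of oocyte-derived RNAs was higher in the uniparental 1PN embryos, with 3 of its 10 calls left without embryo 10. The list of oocyte-derived genes holds components of the egg's cytoplasm, secreted oocyte factors and regulators of maternal RNA. It was drawn up with earlier results of these data known, so its counts and median are a description and not a test. Of its 79 tested members 10 rose and none fell, against 1.33% higher and 0.541% lower over all genes, and the median log2 difference was 0.68, against -0.01 over all genes tested. Of the 79, 68 had a positive difference, against 11900 of 24380 over all genes. The mean level of the list, as log2(CPM + 1), was 6.06 to 7.58 in the 8 embryos (median 6.44), 5.40 to 6.73 in the parthenotes (median 6.12) and 4.90 to 7.02 in 2PN embryos (median 6.00). Against 2PN embryos 35 members were higher in the 8 embryos (background 12.1%) and 16 in parthenotes (background 24.8%). Embryo 10 was the highest of the 8 and above every parthenote, embryo 11 was the lowest of the 8, and 7 of the 8 lay above the parthenote median.

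All levels are relative to the counted RNA of a whole embryo, so fewer cells and less RNA per cell cannot be told apart.

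Upstream sequence is shown for genes of this list because 10 of them rose. Of the 10 that rose, 9 matched the RefSeq promoter table (build GRCm38.p6). In the 250 bases upstream of a start site, the E-box CANNTG, the kind of site that the oocyte factor FIGLA binds, was found in 7 of these 9 genes in at least 1 of their listed promoters, and in 66.2% of all 32851 promoters in the table. The motif TAATTG, bound by the oocyte factor NOBOX, was found on either strand in 1 of the 9, Ooep, and in 7.17% of all promoters. Both strands were searched, CANNTG reads the same on both, and the 2 motifs were counted separately. The counts are per gene, over up to 3 promoters each, and the shares are per promoter, so they are not like for like. A match is a description of letters and not a bound site. Capitals mark CANNTG. The examples are Ooep (minus strand, chr9:78378589-78378838), the first of 3 promoters of Zbed3 (plus strand, chr13:95323355-95323604) and Oosp1 (minus strand, chr19:11691052-11691301), each 5′ to 3′.
Ooep: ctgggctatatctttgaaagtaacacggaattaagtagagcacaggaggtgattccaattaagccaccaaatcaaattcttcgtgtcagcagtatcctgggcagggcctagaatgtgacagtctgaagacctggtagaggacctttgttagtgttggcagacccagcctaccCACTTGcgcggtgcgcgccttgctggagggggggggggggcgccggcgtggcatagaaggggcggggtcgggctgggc
Zbed3: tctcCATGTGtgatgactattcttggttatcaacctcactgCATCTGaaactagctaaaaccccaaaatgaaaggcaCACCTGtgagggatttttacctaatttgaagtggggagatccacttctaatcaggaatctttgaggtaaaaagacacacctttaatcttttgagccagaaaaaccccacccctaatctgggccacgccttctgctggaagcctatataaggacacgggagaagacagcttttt
Oosp1: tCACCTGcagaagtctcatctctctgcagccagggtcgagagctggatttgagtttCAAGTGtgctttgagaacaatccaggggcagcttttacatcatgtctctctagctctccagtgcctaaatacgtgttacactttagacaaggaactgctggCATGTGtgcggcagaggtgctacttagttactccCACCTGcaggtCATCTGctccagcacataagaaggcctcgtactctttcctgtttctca
Ooep held 1 such motif, Zbed3 held 3 and Oosp1 held 5, so these 3 did not share one layout.

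Zfp57 encodes a zinc finger protein that protects imprinted methylation in the early embryo. Its level was 78.9 to 806 CPM (median 312) in the 8 embryos and 39.5 to 232 CPM (median 94.1) in parthenotes. Embryo 10 was highest and embryo 22 lowest, 5 of 8 lay above every parthenote and the groups overlapped. The log2 difference was 1.78 ± 0.27 (SE), adjusted p = 3.41e-06, and it stayed past the threshold with any 1 of the 8 embryos left out. Zbed3, part of the subcortical maternal complex, had 1422 to 14986 CPM (median 3674) against 622 to 2903 CPM (median 1308), and the difference was 1.72 ± 0.33 (SE), adjusted p = 0.000517. All 8 embryos lay above the parthenote median and 5 above every parthenote; without embryo 10 the adjusted p was 0.0701. Ooep, another subunit of that complex, had 35.5 to 201 CPM (median 86.8) against 9.97 to 94.1 CPM (median 28.3), a difference of 1.51 ± 0.30 (SE), adjusted p = 0.000959. Npm2, the histone chaperone that unfolds sperm chromatin in the egg, had 192 to 541 CPM (median 283) against 59.9 to 274 CPM (median 130.2), a difference of 1.06 ± 0.21 (SE), adjusted p = 0.00102. For both genes all 8 embryos lay above the parthenote median, and both calls held with any 1 embryo left out. Zfp57, Ooep and Npm2 were the 3 list members still called without embryo 10.

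The other 6 calls of the list were lost without embryo 10, and their differences were smaller without it. Bpgm, the enzyme that makes 2,3-bisphosphoglycerate, had 244 to 2632 CPM (median 525) against 124 to 618 CPM (median 309.9), with embryo 10 the highest. Its difference was 1.35 ± 0.35 (SE), adjusted p = 0.0209, and 0.84 (adjusted p = 0.338) without embryo 10. Bpgm lies on chromosome 6, whose genes had a positive median deviation in that embryo (described with the chromosomes below), with 35.6% of 419 below 0. The part of this in its difference was not tested. Btg4, an adaptor of the deadenylase that removes maternal RNA, had 796 to 6818 CPM (median 1192) against 450.1 to 2006 CPM (median 912) and a difference of 1.19, adjusted p = 0.0328, or 0.75 and 0.394 without embryo 10. It was also lost without embryo 19 or 7. Without embryo 10 the log2 difference went from 1.39 to 1.06 for Nlrp4e, from 1.33 to 0.72 for Oosp1, from 1.49 to 0.86 for Tcl1b1 and from 1.59 to 1.06 for Tcl1b2. These genes of oocyte-specific families had adjusted p-values of 0.103 to 0.551 without it. Tcl1b1 and Tcl1b2 are copies of 1 family whose reads the counting could have split between them. Members below 0 and not past the threshold included Zp3 (-0.37, adjusted p = 0.658), a coat protein of the egg, and Padi6 (-0.31, adjusted p = 0.622), a component of the egg's cytoplasmic lattices. Gdf9, a growth factor secreted by the oocyte, had 0.70, adjusted p = 0.110.

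**Figure D3:**
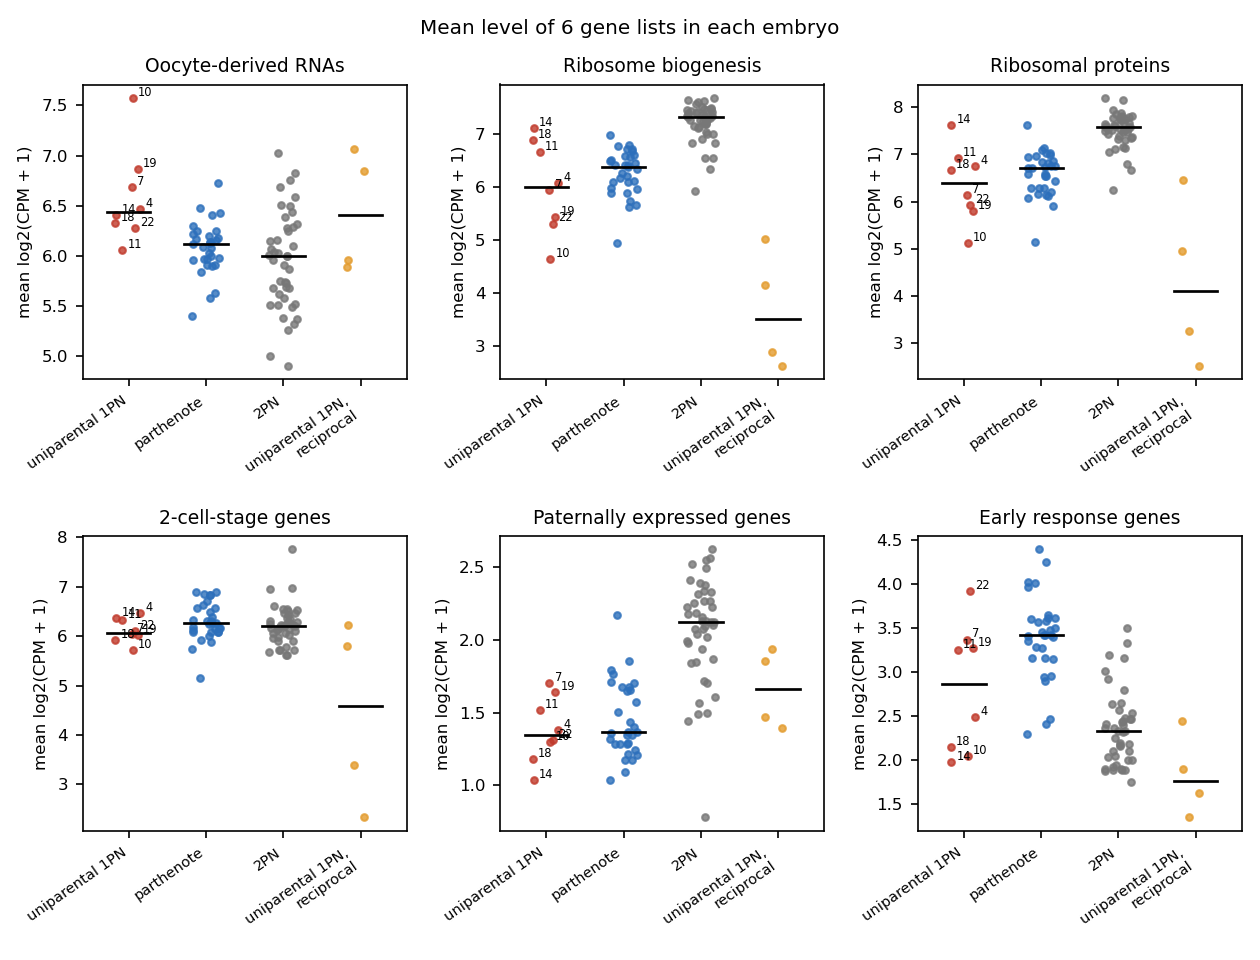
Mean log2(CPM + 1) over the tested members of 6 gene lists, with 1 point per embryo, bars at group medians and the uniparental 1PN embryos numbered. In the panel of oocyte-derived RNAs the 8 embryos (median 6.44) lie above most of the 31 parthenotes (median 6.12); in the ribosome biogenesis panel they spread from 4.64 to 7.11 across the parthenotes' range, and both lie mostly below 2PN embryos (median 7.32).

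Genes that remove stored RNA had a list median near 0, with a few calls that were all lost without embryo 10. Of 40 members 3 rose and none fell, against 1.33% and 0.541% of all genes tested, with a median of 0.08. Besides Btg4 these were Edc4 (0.94, adjusted p = 0.0425), a scaffold of decapping, and Cnot3 (0.77, adjusted p = 0.0425), a subunit of the CCR4-NOT deadenylase. Without embryo 10 their adjusted p-values were 0.669 and 0.284; Edc4 was also lost without embryo 19 or 4, and Cnot3 without 18, 19, 4 or 7.

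Beyond the oocyte list, the genes with the largest rise were of mixed function. Hist1h1a, a linker histone gene of the kind expressed in S phase, had 17.4 to 123 CPM (median 29.5) against 0 to 40.3 CPM (median 7.10). All 8 embryos lay above the parthenote median, and the difference was 2.35 ± 0.41 (SE), adjusted p = 0.000133. Apol7e, a member of the apolipoprotein L family, had 1.34 to 62.4 CPM (median 13.2) against 0 to 22.6 CPM (median 2.78) and a difference of 2.59 ± 0.52 (SE), adjusted p = 0.00112. Chmp4b, a subunit of the ESCRT-III membrane scission machinery, had 4.28 to 27.5 CPM (median 13.2) against 0.403 to 11.8 CPM (median 2.77), with 8 of 8 embryos above the parthenote median and a difference of 2.06 ± 0.37 (SE), adjusted p = 0.000201. Mybpc1, a myosin-binding protein gene, differed by 2.11 ± 0.50 (SE), adjusted p = 0.00748. These 4 calls held with any 1 of the 8 embryos left out.

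The calls of the other large rises were lost without 1 or a few embryos. Grm4, a glutamate receptor gene, had 4.15 to 204 CPM (median 23.8) against 0 to 17.3 CPM (median 6.35); embryo 10 was the highest and the next was 24.9. Its log2 difference of 2.70 (adjusted p = 0.00231) became 1.55 (adjusted p = 0.256) without that embryo. Gng3, a G protein subunit gene, went from 1.96 (adjusted p = 0.0110) to 0.82 (0.627). Mmp2, which encodes a secreted matrix protease, went from 2.16 (0.0211) to 1.13 (0.512), and Fcgbp from 2.05 (0.0211) to 1.19 (0.417). Taz, the X-linked cardiolipin transacylase gene, had 6.13 to 34.1 CPM (median 16.6) against 0 to 14.8 CPM (median 3.35) and a difference of 2.26, adjusted p = 0.0282, lost without embryo 10, 19 or 4 (adjusted p at most 0.0967). Shld1, a component of the shieldin complex of DNA repair (2.13, adjusted p = 0.0327), was lost without embryo 10 (1.57, 0.258), 14 or 18, and Olfr118, an olfactory receptor gene (2.10, adjusted p = 0.0251), without embryo 4. Dynap (3.52, adjusted p = 0.0285) had no count in 3 of the 8 embryos and 94.4 CPM in embryo 19, and was lost without embryo 10 (0.0652) or 19.

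The clearest falls were of Pcdh10, Hexim1, Dnd1 and Tmem267. Pcdh10, a protocadherin of cell adhesion, had 0 to 5.37 CPM (median 2.27) in the 8 embryos and 3.88 to 80.7 CPM (median 19.2) in parthenotes. In all, 7 of 8 lay below every parthenote, and 30 of 31 parthenotes lay above every uniparental 1PN embryo. The log2 difference was -3.52 ± 0.83 (SE), adjusted p = 0.00731. Hexim1, an inhibitor of the elongation factor P-TEFb, had 1.60 to 24.7 CPM (median 6.45) against 7.68 to 74.8 CPM (median 36.6), with 5 of 8 below every parthenote and a difference of -2.15 ± 0.48 (SE), adjusted p = 0.00402. Dnd1, an RNA-binding protein of germ cells, had 0.535 to 5.0 CPM (median 1.06) against 0.274 to 33.8 CPM (median 9.32) and differed by -2.44 ± 0.54 (SE), adjusted p = 0.00403. Tmem267, a membrane protein gene, had 0.615 to 11.3 CPM (median 2.78) against 3.06 to 51.5 CPM (median 15.4) and differed by -2.41 ± 0.57 (SE), adjusted p = 0.00871. For these 4 genes all 8 embryos lay below the parthenote median, and the calls held with any 1 of them left out.

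Pcdh10, Hmgn5, Hexim1, Dnd1 and Tmem267 were also set beside 2PN embryos. The comparisons share the 2PN embryos, and their values are given side by side. For Pcdh10 the 2PN median was 1.58 CPM; parthenotes were above 2PN embryos by 3.19 (log2, adjusted p = 2.64e-11) and uniparental 1PN embryos differed from them by -0.33 (0.752). Hmgn5, an X-linked nucleosome-binding protein, had 50.5 to 396 CPM (median 176) in the 8 embryos, 238 to 1106 CPM (median 763) in parthenotes and a median of 118 in 2PN embryos. Uniparental 1PN embryos differed from parthenotes by -1.76 ± 0.42 (SE), adjusted p = 0.0107 (0.0598 without embryo 10), and parthenotes were higher than 2PN embryos by 2.19 (adjusted p = 5.10e-15). For Hexim1, parthenotes and 2PN embryos differed by 0.02 (adjusted p = 0.953), and uniparental 1PN embryos differed from 2PN embryos by -2.13 (0.000459). For Dnd1 these values were 0.28 (0.416) and -2.16 (0.00147). For Tmem267 both passed the threshold, at 1.03 (0.00150) and -1.37 (0.0464).

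The remaining falls were less firm. Nmrk1, a nicotinamide riboside kinase gene on chromosome 19, had 0 to 75.3 CPM (median 15) against 15.7 to 240.2 CPM (median 126) and a difference of -2.18 ± 0.58 (SE), adjusted p = 0.0257; it was lost without any 1 of embryos 10, 14, 18, 4 and 7 (adjusted p at most 0.0908). Nsl1, a kinetochore protein (-1.83, adjusted p = 0.0364), was lost without 10, 18, 19, 4 or 7, and Apoe, a lipid carrier (-1.68, adjusted p = 0.0465), without 10, 14, 19, 22, 4 or 7. Baiap2, a regulator of actin (-1.82, adjusted p = 0.0428), was lost whichever of the 8 was left out. Zbtb7b, a transcription factor (-1.68, adjusted p = 0.0211), was lost without 10, 14 or 19, Gcdh, a mitochondrial enzyme of lysine breakdown (-1.67, adjusted p = 0.0263), without 10, 14, 19 or 4, and Ier5, an early response gene (-2.61, adjusted p = 0.0211), without 10 or 4. Without embryo 10 the log2 difference and adjusted p were -1.64 and 0.111 for Nsl1, -1.54 and 0.140 for Apoe, -1.69 and 0.130 for Baiap2, -1.62 and 0.0704 for Zbtb7b, -1.50 and 0.103 for Gcdh, and -2.43 and 0.0771 for Ier5, so the differences themselves moved little. Each of these had a lower value than the parthenote median in at least 7 of 8 embryos. Krt18, a keratin of simple epithelia chosen with its list, had 2 counts in all, in embryo 11, against 0 to 27.4 CPM (median 5.34) in parthenotes, of which 25 had a count (adjusted p = 0.0182, 0.0600 without embryo 10).

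**Figure D4:**
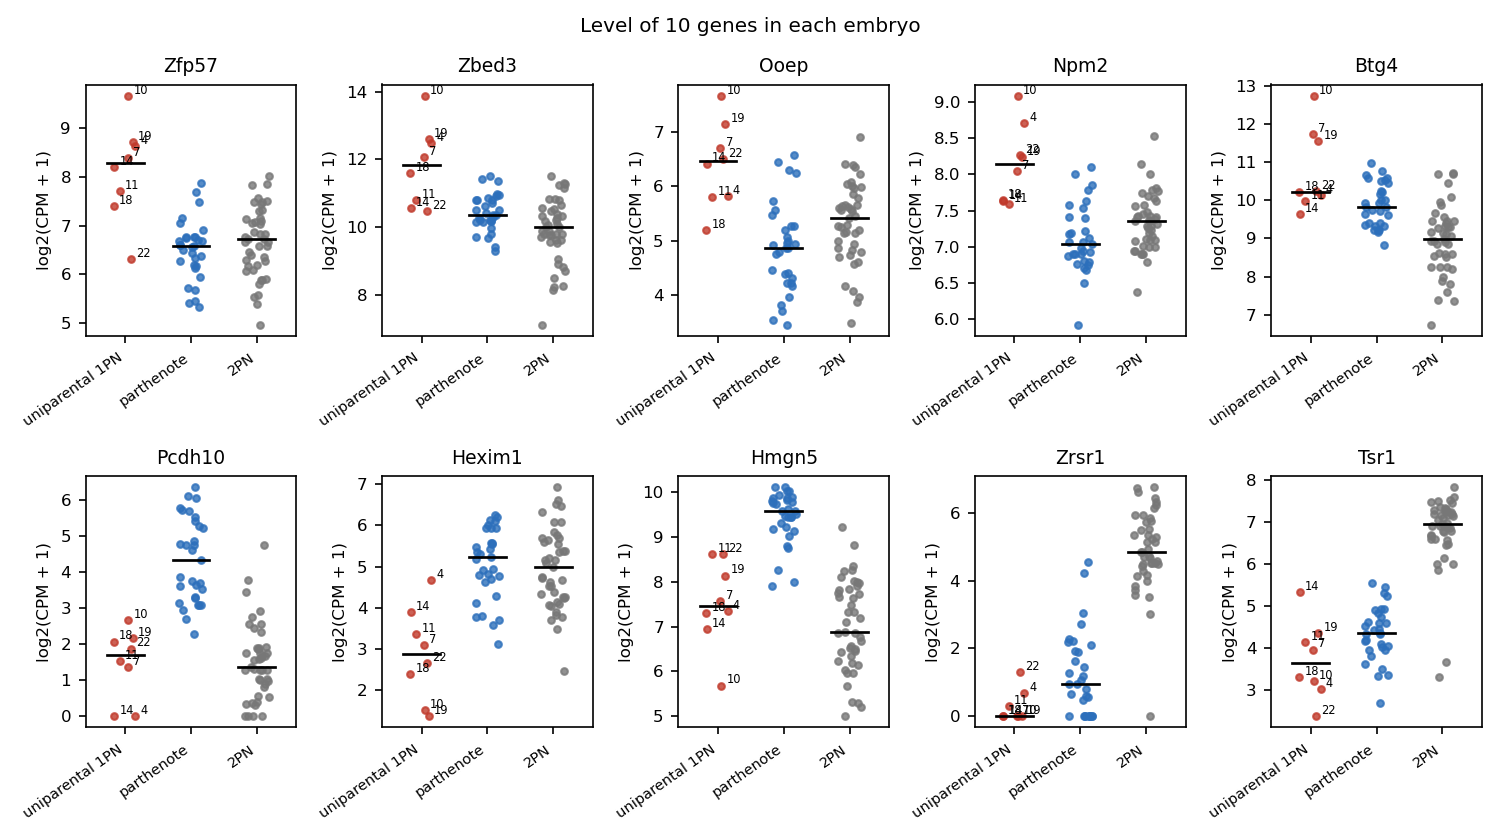
Log2(CPM + 1) of 10 genes in each uniparental 1PN embryo (numbered), parthenote and 2PN embryo, with bars at the group medians. Zfp57, Zbed3, Ooep and Npm2 have their highest median in the uniparental 1PN embryos. Btg4 lies above every parthenote in embryos 10, 19 and 7 and within the parthenote range in the others. Pcdh10 and Hmgn5 are high in parthenotes alone of the 3 groups, and Hexim1 is low in the uniparental 1PN embryos. Zrsr1 and the ribosome assembly gene Tsr1 are low in both uniparental groups and high in 2PN embryos.

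Ribosome biogenesis genes, which assemble ribosomes in the nucleolus, were not called in either direction. Of 93 tested members none passed the threshold by edgeR, against 1.87% of all genes tested. In a list of this size no call lies near that share. An unadjusted p under 0.05 was found for 5 in edgeR, DESeq2 called 1, and the median log2 difference was -0.10. For 49 of the 91 members with at least 10 CPM the interval lay within 2-fold. The mean level was 4.64 to 7.11 in the 8 embryos (median 6.00), 4.95 to 6.99 in parthenotes (median 6.37) and 5.92 to 7.68 in 2PN embryos (median 7.32). Embryo 14 was above all parthenotes and embryo 10 below all of them, so the 8 embryos covered the whole parthenote range. Against 2PN embryos, 53 of the 93 were lower in uniparental 1PN embryos (background 10.2% of all genes) and 76 in parthenotes (background 19.6%), with medians of -1.01 and -0.92. The member with the smallest p in the main comparison was Rpf1, an assembly factor of the large subunit (-0.78, adjusted p = 0.101).

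Among other genes of protein synthesis, no member of the 82 ribosomal protein genes (unadjusted p under 0.05 in 3) or of the 12 RNA polymerase I genes (1) was called by edgeR. The share over all genes tested was 1.87%, and the list medians were -0.09 and -0.01. For 66 of the 80 ribosomal protein genes at 10 CPM or more the interval lay within 2-fold. Rpl22, the ribosomal protein nearest to the threshold, had 15.8 to 151 CPM (median 68.8) against 19.7 to 279 CPM (median 181) and a difference of -1.15, adjusted p = 0.0534. Of 47 translation factors 1 rose and 1 fell, against 1.33% and 0.541% of all genes tested. Eif4g1, the scaffold that joins the cap to the ribosome, had 44.9 to 145 CPM (median 93.6) against 20.7 to 120.9 CPM (median 45.9) and differed by 0.99 ± 0.20 (SE), adjusted p = 0.00135, and the call held with any 1 embryo left out. Eif3j1, a subunit gene of initiation factor 3, differed by -0.92, adjusted p = 0.0359 (0.146 without embryo 10; also lost without 11, 19, 22, 4 or 7).

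Of the genes of genome activation, few were called. Of 60 genes of the 2-cell stage 1 rose and none fell, against 1.33% and 0.541% of all genes tested. Their median was -0.17, and the mean level was 5.71 to 6.47 in the 8 embryos and 5.16 to 6.89 in parthenotes. The call was of Sp110, a nuclear body protein gene that had 346 to 1600.2 CPM (median 826) against 180.3 to 877 CPM (median 399) and differed by 0.93, adjusted p = 0.0328 (0.0925 without embryo 10; also lost without 14 or 4). Zscan4c, of the telomere-associated Zscan4 family, had 14.2 to 133 CPM (median 66.0) against 33.7 to 387 CPM (median 130.0) (-1.24, adjusted p = 0.484), and Obox1, a homeobox gene, had 184 to 860.4 CPM (median 241) against 60.9 to 353 CPM (median 166) (1.20, adjusted p = 0.0555). Both families have near-identical copies, so these levels are uncertain. Of 56 genes of egg activation, such as the calcium channel and kinase genes that answer the sperm, none was called by edgeR (4 at an unadjusted p under 0.05). The share over all genes tested was 1.87%, and the list median was -0.09.

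As a list, paternally expressed imprinted genes had a lower median level in both groups than in 2PN embryos. Of 44 tested 1 fell and none rose, against 0.541% and 1.33% of all genes tested, with a median of -0.13. Only 8 averaged 10 CPM or more over the 39 embryos. The mean level was 1.04 to 1.71 in the 8 embryos, 1.04 to 2.17 in parthenotes and 0.78 to 2.62 in 2PN embryos (medians 1.35, 1.37 and 2.12). Against 2PN embryos 14 members were lower and 3 higher in the 8 embryos (background 10.2% and 12.1%). In parthenotes 20 were lower and 7 higher (background 19.6% and 24.8%). The gene that fell was Zrsr1, a retrogene of a splicing factor inside an intron of Commd1, with counts in 3 of the 8 embryos (at most 1.48 CPM) and in 22 of 31 parthenotes (0 to 22.6 CPM (median 0.946)); the 2PN median was 28. Its difference was -3.13, adjusted p = 0.0168, or 0.0646 without embryo 10, and it was near 0 in most embryos of both groups. Snrpn, of the Prader-Willi region, had 6.53 to 79.5 CPM (median 21.9) against 2.32 to 48.4 CPM (median 11.9) and a 2PN median of 82.2 (0.90, adjusted p = 0.0687). Mest, an imprinted hydrolase gene, had 15.9 to 102 CPM (median 25.2) against 1.11 to 41.2 CPM (median 11.9) (1.15, adjusted p = 0.135). The noncoding RNA Xist, which the paternal X makes at this stage, had 0 to 42.8 CPM (median 8.74) against 0 to 25.5 CPM (median 4.72), with embryo 19 the highest (0.75, adjusted p = 0.738). Of the others that averaged 10 CPM or more in either group, Zdbf2 had a log2 difference of 1.32, Inpp5f 0.73, Bbx 0.94, Zim3 0.26, Usp29 -0.03, Jade1 -0.10, Sall3 -0.83 and Dio3 -2.17, with adjusted p-values of 0.240 to 0.996. Mcts2 (mean 6.71 CPM against 7.17), Impact (3.75 against 4.06), Etv6 (1.40 against 4.77) and Snhg14 (1.48 against 3.41) were low in both and averaged 79.6, 16.3, 48.1 and 18.1 CPM in 2PN embryos. Of 37 maternally expressed genes none was called by edgeR (4 at an unadjusted p under 0.05), against 1.87% of all genes tested, with a median of -0.09.

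Of 58 DNA replication genes 2 rose and none fell, against 1.33% and 0.541% of all genes tested, and the median was 0.13. Pold3, a subunit of DNA polymerase delta, had 91.5 to 232 CPM (median 108) against 15.2 to 141 CPM (median 58.2) and differed by 1.04 ± 0.24 (SE), adjusted p = 0.00450 (0.0672 without embryo 10), and Pola1, the catalytic subunit of polymerase alpha, had 54.4 to 142 CPM (median 89.0) against 18.6 to 119 CPM (median 47.3) and differed by 0.96 ± 0.24 (SE), adjusted p = 0.0148 (0.0680 without embryo 4). All 8 embryos lay above the parthenote median for both. Of 77 nuclear genes of the respiratory chain 4 rose and none fell, with a median of 0.09. These were the cytochrome oxidase subunit Cox8a (1.00, adjusted p = 0.00149) and the complex I subunits Ndufs5 (1.52, adjusted p = 0.0143), Ndufb8 (0.96, adjusted p = 0.0352) and Ndufa13 (0.92, adjusted p = 0.0399). Without embryo 10 their adjusted p-values were 0.277, 0.151, 0.399 and 0.206. The 3 complex I calls were also lost without embryo 14, and Ndufb8 was also lost without 19 or 4. The 13 protein genes of the mitochondrial genome had no call by edgeR (2 at an unadjusted p under 0.05). Of 44 genes of glucose metabolism 2 rose, Bpgm and Ldhb, and none fell, while the list as a whole leaned the other way: its median was -0.41, 13 of 44 had a positive difference, and 2 of 8 embryos had a mean level above the parthenote median. Ldhb, a lactate dehydrogenase, differed by 0.80, adjusted p = 0.0427 (0.416 without embryo 10, and lost without 19 or 4).

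Of 41 replication-dependent histone genes 2 rose, Hist1h1a and Hist2h2be, and none fell, against 1.33% and 0.541% of all genes tested. The list median was 0.64, near that of the oocyte-derived list, 34 of 41 had a positive difference, and 7 of 8 embryos had a mean level above the parthenote median (1.00 to 2.16 against 0.97 to 1.73, as log2(CPM + 1)). Only 6 of the 41 averaged 10 CPM or more, with a median of 0.29. Hist2h2be had counts in 3 of the 8 embryos (up to 21.1 CPM in embryo 10) and 3 counts in all parthenotes together. Among 38 lineage genes, with a median of -0.32, Krt18 fell and Utf1, a chromatin factor of early embryos, was called higher from counts in 2 of the 8 embryos (adjusted p = 0.0194, 0.456 without embryo 4). The spliceosome protein gene Snrpg rose (0.68, adjusted p = 0.00686; 0.205 without embryo 10), 1 of 63 splicing genes (median -0.01). Of 26 genes of innate sensing 1 rose, against 1.33% of all genes, but the median was -0.57, 6 of 26 had a positive difference, and 2 of 8 embryos had a mean level above the parthenote median. The gene was Bst2, an antiviral membrane protein (1.16, adjusted p = 0.0383, or 1.19 and 0.0761 without embryo 10; also lost without 14 or 4). Zfp57 was the 1 call among 69 chromatin genes (median 0.10).

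Lists with no call included p53 targets (41), stress genes (66), apoptosis (37), mitosis (59), nuclear transport (67), the proteasome (49) and cholesterol synthesis (25); 11, 7, 4, 6, 5, 6 and 3 of their members had an unadjusted p under 0.05 in edgeR. Their medians were -0.48, -0.17, -0.13, -0.04, 0.10, -0.08 and -0.49. Over all genes tested, 1.87% were called in either direction. In cholesterol synthesis, all 8 embryos had a mean level at or below the parthenote median: 3.38 to 4.24 against 3.92 to 4.77 (median 4.30). The early response genes, which signalling switches on within minutes, had 1 call (Ier5) among 33, a median of -0.42 and a mean level of 1.98 to 3.93 in the 8 embryos against 2.30 to 4.39 (median 3.42); 7 of 8 lay below that median. Perp, a p53 target of cell junctions, had 0 to 5.88 CPM (median 1.06) in the 8 embryos and 0 to 79.2 CPM (median 17.2) in parthenotes (-3.34, adjusted p = 0.0749), Cyp51, of cholesterol synthesis, 0 to 21.4 CPM (median 5.93) against 1.85 to 92.0 CPM (median 33.4) (-2.17, adjusted p = 0.156), and Hspa5, a chaperone of the endoplasmic reticulum, 196 to 361 CPM (median 261) against 261 to 716 CPM (median 444) (-0.74, adjusted p = 0.136). All 8 embryos lay below the parthenote median for these 3 genes.

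The medians of whole chromosomes stood apart in some embryos. For each embryo and chromosome, the median over genes of the deviation of log2(CPM + 1), with CPM of total counts, from the median of the 39 embryos was taken, less the embryo's own overall median. On chromosome 19 embryo 7 had a median of -2.48 over 291 genes, of which 88.7% were below 0. Among the 281 chromosome 19 genes tested at 10 CPM or more, embryo 7 was the lowest of all 39 embryos for 110 (39.1%), against 73 of 8672 genes (0.842%) on the other chromosomes, and 68 had under 1 CPM in it. Embryo 10 had -0.72 on the X chromosome and 0.61 on chromosome 6, and embryo 19 had 0.71 on chromosome 6. The genes of embryo 10 were widely spread, with quartiles of -2.22 and 0.51 on the X chromosome and -0.67 and 1.58 on chromosome 6. The quartiles of embryo 19 on chromosome 6 were 0.13 and 1.22. Parthenote 7 had -2.23 on chromosome 6 and parthenote 30 had -1.07 on chromosome 5. In all, 3 of the 8 uniparental 1PN embryos and 6 of the 31 parthenotes had a chromosome past 0.5 in either direction, and 1 and 2 had one past 1; these limits were set after seeing the values. Of the 6 parthenotes past 0.5, number 11 was also widely spread, with quartiles of -2.44 and 0.48 on chromosome 19. The cause was not tested. The median log2 difference of the chromosome 19 genes between the groups was -0.20 with embryo 7 and -0.07 without it, and 3 and 0 of the 281 were called lower. On chromosome 6 the median over the 1038 genes tested was 0.21, with 16 called higher and 3 lower.

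**Figure D5:**
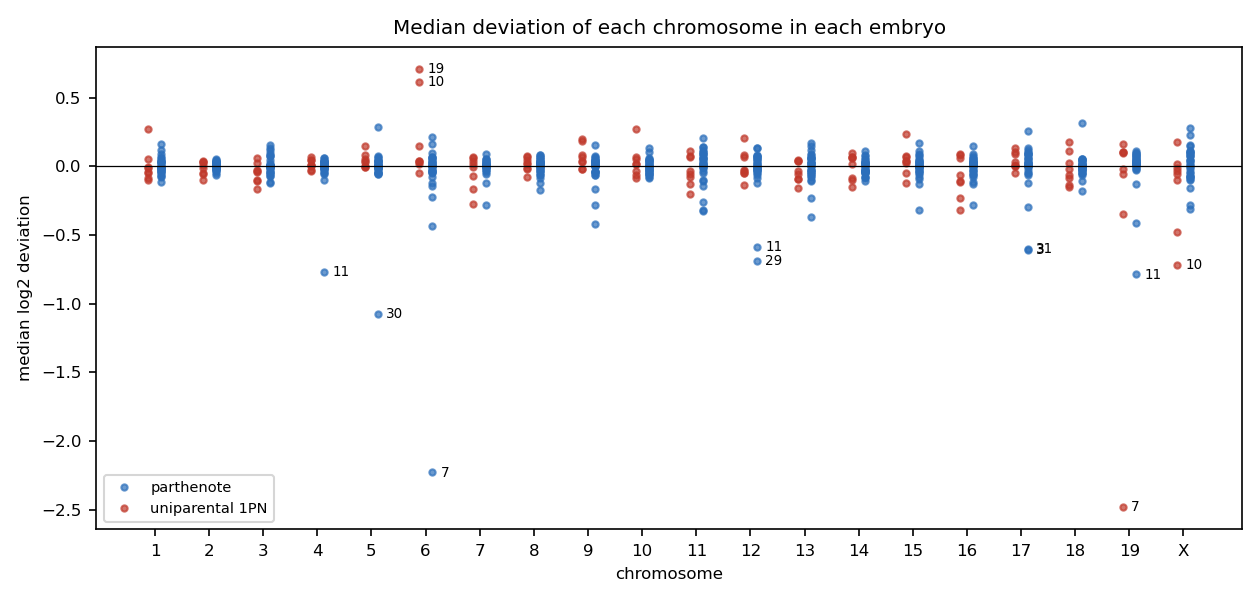
Median log2 deviation of each chromosome in each of the 8 uniparental 1PN embryos and 31 parthenotes, with 1 point per embryo and the embryos past 0.5 in either direction numbered. Embryo 7 stands at -2.48 on chromosome 19 and parthenote 7 at -2.23 on chromosome 6, while the other points within 0.5 of 0 lie between -0.48 and 0.31.

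Counts of genes without a symbol separated the groups more than any other library measure. They took 0.0714% ± 0.0126 (SD, n = 8) of the counts in uniparental 1PN embryos, range 0.0567% to 0.0914%, and 0.0509% ± 0.00578 (SD, n = 31) in parthenotes, range 0.0398% to 0.0617% (2-sided exact permutation test, p = 1.04e-06, adjusted p = 5.20e-06). The table holds 155 such genes, and 1 of them, ENSMUSG00000118624, accounted for 79.1% of the difference. It averaged 296 ± 182 CPM of total counts (SD, n = 8) in uniparental 1PN embryos and 133 ± 52.2 (SD, n = 31) in parthenotes, and in edgeR its log2 difference was 1.20 ± 0.36 (SE) with an adjusted p of 0.0555. DESeq2 (adjusted p = 0.0372), limma voom (0.0372), DESeq2 size factors (0.0410), no filter on low counts (0.0261) and a fit of the 39 embryos alone (0.00131) put it past the threshold, and without embryo 10 the difference was 0.87 (adjusted p = 0.339). This gene was chosen after its values were seen.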

How the data were processed

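RNA was measured by sequencing single 2-cell embryos; libraries used a SMART-Seq v4 and a Nextera XT kit, per the labels' protocols. Per the submitters' processing notes the tools include HISAT2 2.0.5 and featureCounts 2.0.0, with build GRCm38; whether strand was used is not stated there. The authors deposited estimated counts of each gene, with no depth scaling; 28.4% of those above 0 were not whole. They were rounded. Of 43421 genes, 43266 matched a symbol and 32346 a RefSeq table (GRCm38.p6), the source of chromosomes. No per-sample column was without a sample.

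The gene tests used edgeR 4.0.16 under R 4.3.3 (TMM, filterByExpr by group, quasi-likelihood F test, Benjamini-Hochberg over 24380 genes, threshold 0.05) in a fit of 121 embryos of 7 groups, which share 1 estimate of the spread; 4 libraries labelled dead or of low quality were left out. CPM are TMM-scaled, and 95% intervals of fold changes are normal approximations. Library totals were 1846360 to 4302020 in the 39 embryos; counts without molecular identifiers cover counting error only. No pair of libraries looked like 1 library deposited in 2 copies (lowest chi-square per gene 17.9). Exact tests enumerated 61523748 arrangements. Alternatives used DESeq2 1.42.0 and limma 3.58.1, other filters and scaling, fewer embryos, and each of the 8 left out. The scripts were checked on simulated data. Exact tests were computed with numpy 2.4.6, ranks with scipy 1.17.1 and figures with matplotlib 3.10.9, under Python 3.11.15.

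Named genes were the 12 that rose and the 12 that fell most past the threshold (proper symbol, no pseudogene, 10 CPM or more on average in the higher group, counted in a share of at least 0.5 of its embryos), up to 4 members per list by p, and members of the paternally expressed, Y-linked and strain-linked lists; only some are printed, and folds only for genes past the threshold or at 10 CPM in 1 group. A few list members outside this rule (Zp3, Padi6, Gdf9, Zscan4c, Nlrp4e, Oosp1, Tcl1b1, Tcl1b2, Tsr1) were chosen after their values were seen. The members and lists were chosen with earlier results of these data known.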

Additional observations from a re-analysis of the deposited data

Results flagged for a closer look

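In 106 values of the 8 uniparental 1PN embryos (library measures, list means, named genes past the threshold and chromosome medians), 6 had 1 embryo whose gap to its nearest neighbour took more than 0.526 of the group's range, Dixon's limit for 8 samples; chance gives about 1 in 20. Embryo 10 was the one for Grm4, at 7.68 as log2(CPM + 1) with the others between 2.37 and 4.69, and for Gng3, at 8.78 with the others between 4.08 and 6.18. It was also the one for the median deviation of chromosome 1, at 0.27 with the others between -0.10 and 0.05, and of chromosome 10, at 0.27 with the others between -0.08 and 0.07. Embryo 7 was the one for chromosome 19, at -2.48 with the others between -0.35 and 0.16. For Krt18 embryo 11 stood at 0.55 and the others at 0.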

How the results depend on the processing

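The genes higher (325) and lower (132) moved by over 1.5 times under several settings. They were 1377 and 383 with no filter on low counts, and 524 and 246 with only the 39 embryos fitted. The lower count was 204 with DESeq2, 406 with limma voom, 37 at a mean of at least 10 CPM and 57 without the 3 embryos with a chromosome apart. Leaving out each of the 8 gave 124 to 452 higher and 23 to 145 lower. The oocyte-derived genes higher (10) were 17 with no filter, 27 with the 39 embryos, and 3 to 18 with 1 embryo left out. Ribosome biogenesis genes lower (0) were 1 with DESeq2 and 1 with the 39 embryos. The share of the 50 most counted genes was past the threshold without embryo 11 (difference 3.78 percentage points, the highest; 1.38, the lowest, without embryo 10; 2.79 with all). Title numbers are shared by 8 embryos of each group but do not pair them: correlations of same-numbered embryos were -0.27 to 0.21, and 1 of 8 embryos correlated best with its own number. With these numbers as a replicate block the 16 embryos gave 0 genes higher, 0 lower and 0 oocyte-derived (edgeR, 1032 at an unadjusted p under 0.05), and without the block the same 16 embryos also gave 0, 0 and 0 (1172). Of the named genes 2 changed direction, both near 0 in the report: Jade1 was 0.28 with limma voom, 0.27 with the replicate block and -0.46 to 0.093 with 1 embryo left out, and Usp29 was 0.18 with limma voom, 0.0087 at 10 CPM or more, 0.0073 with no filter, 0.0049 with the 39 embryos and -0.13 to 0.093 with 1 embryo left out. Of 48 named calls, 32 were lost without embryo 10 and 17 with limma voom. The causes were not tested. Fewer embryos and the depth of 1846360 to 4302020 counts limit the small differences that could be called.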
